A study of Mus musculus with 4 samples.

Results

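The genes described here repair broken and crosslinked DNA by homologous recombination and the Fanconi pathway, or signal such damage to the cell cycle. They are 37 genes chosen by name, with earlier results of these data known. The counts set beside all genes below therefore only describe these members. A probe set was taken where the platform annotation paired it with a member and with no other gene. This gave 36 members with 74 probe sets, out of 18193 genes measured on the arrays. Xrcc2 was not listed in the table that names the probe sets. Where a gene had several, the one with the highest mean log2(value + 16) over the 4 arrays stands for it, with values below 0 set to 0. Probe sets differ in brightness, so levels are compared between arrays and not between genes.

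The arrays held RNA from blasts of an M7, or megakaryoblastic, leukemia of mice. The leukemia was raised by retroviral insertional mutagenesis of fetal progenitors that carried Gata1s, a mutant of the blood transcription factor Gata1 that yields a shortened protein. Blasts were sorted by the GFP that the retrovirus brought in, directly from the animals and without treatment. Peripheral blood and spleen of 2 mice were sampled, so each tissue has 2 arrays. All 4 samples share the Gata1 mutation, the GFP tag and the leukemia designation T6(6). Whether the leukemias of the 2 mice arose separately is not stated in the labels, nor are strain and age. Replicates of a tissue are these 2 animals. The p-values rest on the spread between them and, with more weight, on that shared by all tested genes (2 residual against 4.06 prior degrees of freedom). Every comparison below is between blasts of spleen and blood, since no array of cells without the leukemia was used.

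As background, homologous recombination copies a broken DNA end from the sister chromatid, and so works mainly in S and G2 phase. The ends are sensed and trimmed by the MRE11 complex and EXO1, and BRCA1, PALB2 and BRCA2 then prepare the trimmed end for strand pairing. The Fanconi core complex marks FANCD2 and FANCI with ubiquitin at crosslinked DNA, which opens the way to crosslink removal and recombination. ATM and ATR, with CHEK2 and CHEK1 as their effector kinases, halt the cycle while this goes on. Many of these genes are transcribed under E2F control in dividing cells, and inherited loss of Fanconi genes causes bone marrow failure and a tendency to myeloid leukemia.

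Median intensities of the 4 arrays lay between 103.7 and 110.6. Markers of the labelled cell type were present: of 14 megakaryocyte markers 12 were measured, and 0 of them stayed under the median probe set intensity of 106 on all arrays. Their summed intensity was 26080 (blood) and 30092 (spleen) for mouse 1, and 25628 and 30903 for mouse 2, so it was higher in spleen in each animal. Treml1 and Gp1bb, both of platelets and megakaryocytes, differed by 1.61 ± 0.17 and 1.06 ± 0.16. Treml1 had 82.8 and 73.8 in blood and 232 and 319 in spleen, so it was tested only because of its level in spleen. Itgb3, another of these markers, was too dim to test. It exceeded the median only in spleen of mouse 2, at 123, with 39.7 in spleen of mouse 1 and 15.9 and -4.17 in blood. Markers of other blood cells were present too. The summed intensity of 14 granulocyte markers was 8579 (blood) and 6855 (spleen) for mouse 1, and 18949 (blood) and 3559 (spleen) for mouse 2. S100a8 and S100a9, calcium-binding proteins of neutrophils, had intensities of 5601 and 5862 in blood and 178 and 144 in spleen of that mouse. Of the 11 tested granulocyte markers 8 were lower in spleen in both mice and 2 higher; the latter were Prtn3 and Ctsg, proteases of granules, with differences of 0.75 and 0.51 in mouse 1 and 0.52 and 0.34 in mouse 2. For 12 macrophage and monocyte markers the sum was 3469 and 4296 in mouse 1 and 7154 and 2956 in mouse 2, and for 13 T and NK cell markers 7786 and 9019 in mouse 1 and 10961 and 5788 in mouse 2. Of the 8 measured B and plasma cell markers, 6 stayed under the median on all arrays, among them Ms4a1 and Cd79a, and their sum lay between 716 and 786. Cd3d and Cd5 of the T cell markers and Ms4a7 of the macrophage markers also stayed under it. The summed intensity of 6 erythroid markers lay between 4304 and 4987, with Alas2 and Hba-a1 under the median. Hemgn and Slc4a1 of the erythroid markers differed by 0.72 ± 0.12 and 0.19 ± 0.11, Cd3g and Cd2 of the T cell markers by -0.53 ± 0.23 and -0.28 ± 0.14, Cd68 of the macrophage markers by -0.48 ± 0.20, and Pax5 of the B cell markers by 0.24 ± 0.14. Klf1, another erythroid marker, was lower in spleen, with differences of -0.060 and -0.24 in the 2 mice. Of 7 tested macrophage markers 6 went opposite ways in the mice, among them Adgre1, Csf1r and Mpeg1, which differed by 0.66, 0.50 and 1.19 in mouse 1 and by -1.41, -3.41 and -4.15 in mouse 2. The complement genes C1qa, C1qb and C1qc, which were too dim to test, differed by 3.21, 2.63 and 2.43 in mouse 1 and by 0, -0.026 and 0.72 in mouse 2; C1qa was below 0, and so set to 0, on all arrays but spleen of mouse 1. None of those tested passed the test over all genes that is described below. The part of these cells in the differences of the repair genes was not tested.

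Most recombination, Fanconi and checkpoint genes stood somewhat higher in blasts of spleen than in those of blood, in both mice. Of the 36 measured members, 24 were higher in spleen in both mice, 6 were lower in both and 6 went opposite ways. Over all 18193 genes 32.9% were higher in both mice and 26.7% lower. For 22 members both spleen arrays exceeded both blood arrays, against 22.9% of all genes, and for 4 members both lay below, against 18.5%. Differences of at least 0.25 on the log2 scale in each mouse, higher in spleen, were seen for 14 members, against 7.13% of all genes. Differences of that size in the other direction were seen for 0 members, against 5.58% of all genes. The median difference over the 36 members was 0.29 in mouse 1 and 0.20 in mouse 2, and over all genes 0.04 and -0.01. In sorted bulk cells, a smaller share of dividing cells and less of a transcript in each cell cannot be told apart.

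**Figure D1:**
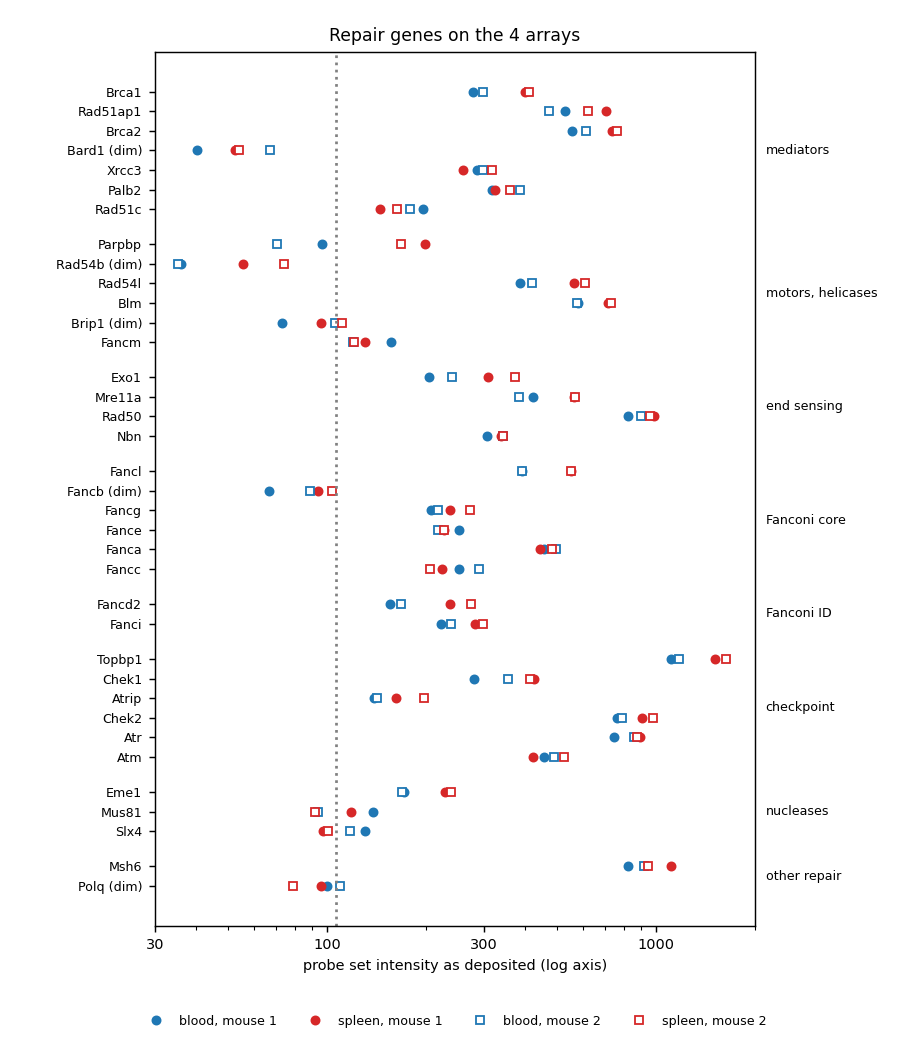
Intensity of the probe set used for each of the 36 measured repair genes on the 4 arrays (x axis, intensity as deposited, log axis), in rows grouped by role; filled circles are mouse 1, open squares mouse 2, blue is blood and red is spleen, and the dotted line is the median probe set intensity of 106. For 22 genes both red symbols lie to the right of both blue ones, and for 4 genes (Rad51c, Fancc, Slx4, Polq) both lie to the left.

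No member passed the test over all genes. Limma was fitted to the 11614 genes whose mean log2 value reached the median of all probe sets, and 0 of them, or 0%, had an adjusted p under the threshold of 0.05. Of the members 31 were tested and 0 passed; the smallest adjusted p among them was 0.144, for Parpbp. The other 5 (Bard1, Rad54b, Brip1, Fancb and Polq) were too dim. Before adjustment 15 of the 31 had p under 0.05, 14 of them higher in spleen and 1 lower, where the shares over all tested genes were 12.4%, 8.12% and 4.31%. Among all genes this was 943 higher and 500 lower, which centring the arrays on their medians turned into 1310 and 354; the members then gave 16 and 0. Of the 31, 21 were higher in both mice and 5 lower, against 38.5% and 25.1% of tested genes, and 20 had both spleen arrays above both blood arrays and 3 below, against 27.5% and 17.6%. At least 0.25 higher in both mice were 13 of them and at least 0.25 lower 0, against 7.94% and 3.7%. The exact permutation test of a single gene, with 2 arrays against 2, cannot give a two-sided p below 0.333. Parpbp was tested only because of its level in spleen, and Mus81 and Slx4 only because of their level in blood.

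**Figure D2:**
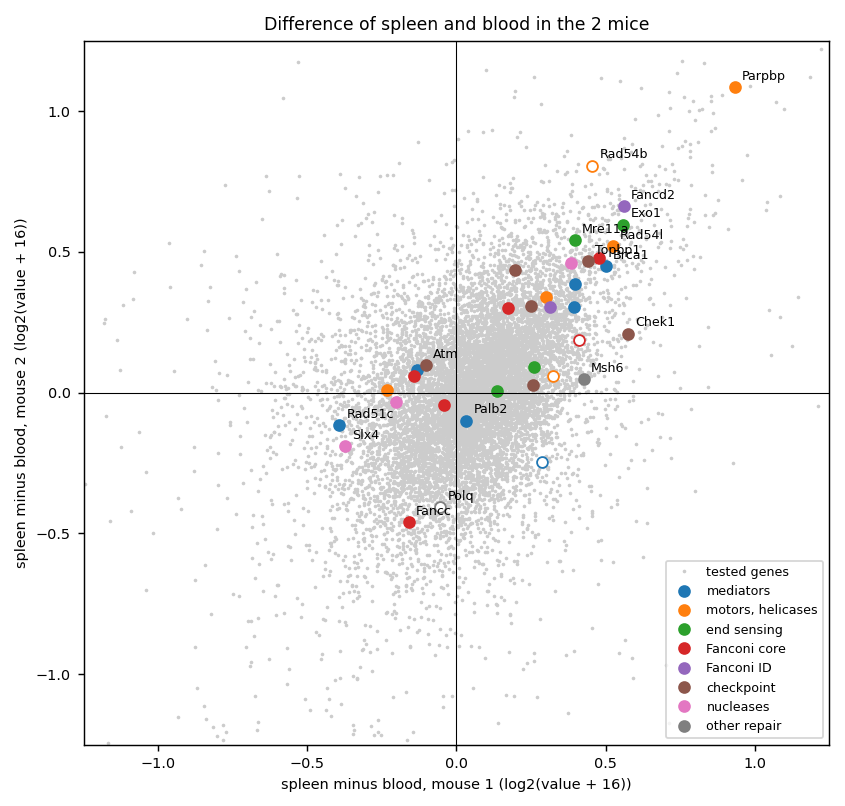
Spleen minus blood on the log2(value + 16) scale in mouse 1 (x axis) and mouse 2 (y axis); grey points are tested genes, of which 117 lie outside the axes, coloured points are the repair genes by role, and open points are the 5 dim members that were not tested. Parpbp lies farthest to the upper right, at 0.93 and 1.09, and Fancc, Slx4 and Rad51c lie to the lower left.

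Among the mediators, which prepare trimmed ends for strand pairing, Brca1, Brca2 and Rad51ap1 were higher in spleen, while Palb2, Xrcc3 and Rad51c were level or lower. Brca1, a ubiquitin ligase that acts early in this step, had intensities of 278 and 297 in blood and 399.7 and 411 in spleen, where here and below mouse 1 comes first. Both spleen arrays lay above both blood arrays, and the difference was 0.47 ± 0.11 (SE, 2 arrays per tissue; adjusted p = 0.227). All 4 probe sets of Brca1 were higher in spleen in both mice. Brca2, the tumour suppressor that acts after it, had 556 and 613 in blood and 735 and 761 in spleen, again with no overlap of the tissues, and differed by 0.35 ± 0.12 (adjusted p = 0.347). Rad51ap1, which promotes strand pairing, had 529 and 473 in blood and 702 and 623 in spleen and differed by 0.39 ± 0.13 (adjusted p = 0.341), with all 4 of its probe sets higher in both mice.

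The remaining mediators did not share this. Palb2, the bridge between BRCA1 and BRCA2, had 317 and 386 in blood and 325 and 359 in spleen; the tissues overlapped, with differences of 0.033 in mouse 1 and -0.10 in mouse 2. Xrcc3, a recombination mediator, had 285 and 298 in blood and 258 and 317 in spleen, and its mice also went opposite ways. Rad51c, the binding partner of Xrcc3, was lower in spleen, at 196 and 179 in blood and 145 and 164 in spleen, with a difference of -0.25 ± 0.12 (adjusted p = 0.457). Its second probe set, which was dimmer, had the opposite direction. Bard1, the partner of Brca1, stayed under the median probe set intensity on all 4 arrays, between 40.3 and 67.0.

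Motors and helicases that act on recombining DNA held the member with the largest difference. Parpbp, also known as PARI, which restrains recombination, had 96.4 and 70.4 in blood and 199 and 167 in spleen. Both blood values lay under the median probe set intensity of 106, and Parpbp was tested only because of its level in spleen. The spleen arrays were brighter in both mice, by 0.93 in mouse 1 and 1.09 in mouse 2, and the mean difference was 1.01 ± 0.17 (adjusted p = 0.144). Its other probe set, dimmer, had the same direction. Rad54l, the motor that drives strand exchange, had 387 and 419 in blood and 563 and 607 in spleen, with differences of 0.52 and 0.52 in the 2 mice and 0.52 ± 0.12 in the mean (adjusted p = 0.218). All 4 probe sets of Rad54l were higher in spleen in both mice. Blm, the Bloom syndrome helicase that keeps crossovers from forming, had 578 and 574 in blood and 716 and 730.2 in spleen and differed by 0.32 ± 0.11 (adjusted p = 0.349).

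Of the other motors, Rad54b, a relative of Rad54l, was dim and higher in both spleen arrays, at 36.1 and 35.4 in blood and 55.5 and 74.0 in spleen. Brip1, the helicase bound to BRCA1, was dim as well, at 73.3 and 106 in blood and 95.7 and 111 in spleen, and the tissues overlapped. Fancm, the translocase that brings the Fanconi core complex to DNA, had 156 and 119.7 in blood and 131 and 121 in spleen; the difference was -0.23 in mouse 1 and 0.01 in mouse 2.

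All 4 genes of end sensing and resection were higher in spleen in both mice, by unequal amounts, against 38.5% of all tested genes. Exo1, the exonuclease of long-range resection, had 205 and 240.5 in blood and 309.5 and 372 in spleen and differed by 0.58 ± 0.14 (adjusted p = 0.253). The difference was 0.56 in mouse 1 and 0.60 in mouse 2, and its second bright probe set differed by 0.11. Mre11a, the nuclease of the end-sensing complex, had 424 and 383 in blood and 563 and 566 in spleen and differed by 0.47 ± 0.12 (adjusted p = 0.247). Averaged over its 2 probe sets the difference was 0.24, the second alone giving 0.012. Its partners differed less. Rad50, the ATPase of the complex, had 820.0 and 901 in blood and 984 and 959 in spleen and differed by 0.17 ± 0.12 (adjusted p = 0.573), which became 0.11 without blood replicate 1, and the same with quantile normalization or averaged probe sets. Nbn, the subunit that binds ATM, had 306 and 342 in blood and 337 and 343 in spleen, and in mouse 2 the tissues differed by 0.0048.

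The Fanconi core complex was divided. Fancl, its ubiquitin ligase, had 391 and 392 in blood and 551 and 553 in spleen. The pair of blood arrays and the pair of spleen arrays were each nearly equal, and the difference was 0.48 and 0.48 in the 2 mice, 0.48 ± 0.11 in the mean (adjusted p = 0.221). Fancg, a scaffold of the complex, had 207 and 217 in blood and 236 and 271 in spleen and differed by 0.24 ± 0.12 (adjusted p = 0.484), or by 0.14 without spleen replicate 2. Fanca and Fance, further subunits, differed by -0.042 and -0.042, with intensities from 443 to 498 and from 217 to 251, and the tissues overlapped for both. Fancc was lower in both spleen arrays by the probe set used, at 252 and 289.6 in blood and 224 and 206 in spleen, with a difference of -0.31 ± 0.13 (adjusted p = 0.399). Its other 2 probe sets were higher in spleen in both mice, and averaging all 3 gave 0.087, so the direction of Fancc depends on the probe set. Fancb was dim, between 66.7 and 103.6, and higher in spleen in both mice.

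Both genes of the pair that the core complex marks were higher in spleen by the probe sets used. Fancd2 had 155 and 167 in blood and 237 and 274 in spleen, with differences of 0.56 and 0.66 in the 2 mice, and 0.61 ± 0.13 in the mean (adjusted p = 0.196). Of the 4 probe sets of Fancd2, 3 were higher in spleen by the mean of the 2 mice, and the dimmest differed by -0.097. Fanci, the partner of Fancd2, had 223 and 238 in blood and 281 and 298 in spleen and differed by 0.31 ± 0.11 (adjusted p = 0.367). The second, dim probe set of Fanci went opposite ways, at 0.10 in mouse 1 and -0.13 in mouse 2. By the probe sets used, the tissues did not overlap for either gene. The median of the 2 genes was 0.46, and that of the 5 tested core complex genes was -0.04, or 0.10 over all 6 with the dim Fancb. The difference between these groups was not tested.

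In both mice 5 of the 6 checkpoint genes were higher in spleen, and Atm, the kinase that answers double-strand breaks, was not. Topbp1, the activator of ATR, had 1111 and 1171 in blood and 1513 and 1626 in spleen and differed by 0.45 ± 0.11 (adjusted p = 0.258), or by 0.19 when averaged with its second, dim probe set. Chek1, the effector kinase of ATR, had 280.2 and 355 in blood and 425 and 413 in spleen, and differed by 0.39 ± 0.14 (adjusted p = 0.366). Its difference was 0.58 in mouse 1 and 0.21 in mouse 2, and 0.23 without blood replicate 1, the dimmest of its arrays. Chek2, the effector kinase of ATM, had 761 and 789.5 in blood and 907 and 980.2 in spleen and differed by 0.28 ± 0.11 (adjusted p = 0.405). Atrip, which holds ATR on single-stranded DNA, had 139 and 142 in blood and 162 and 197 in spleen and differed by 0.32. Atr itself, the kinase of stalled replication, differed by 0.26 in mouse 1 and 0.028 in mouse 2, with 742 and 858 in blood and 891 and 875 in spleen. The other probe sets of Atr, also above the median, had mean differences of 0.015 and -0.13, the latter lower in both mice. Atm had 457 and 491 in blood and 424 and 526 in spleen, the tissues overlapped, and the mean difference was -0.0031 ± 0.14.

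The nucleases that cut joined DNA went both ways. Eme1, the partner that makes MUS81 active, was higher in spleen, at 171 and 169 in blood and 228 and 239 in spleen, with a difference of 0.42 ± 0.11 (adjusted p = 0.274). Mus81, the catalytic subunit, was near the median probe set intensity, at 138 and 94.3 in blood and 118 and 91.8 in spleen, and differed by -0.12 ± 0.20 (adjusted p = 0.841). Its second probe set, dimmer, was higher in spleen in both mice. The direction of Mus81 turned to 0.12 without blood replicate 1 and to 0.04 without spleen replicate 2. Slx4, the scaffold that holds these nucleases, was lower in both spleen arrays, at 131 and 117 in blood and 97.3 and 101 in spleen, with a difference of -0.28 ± 0.12 (adjusted p = 0.405). Of the remaining members, Msh6, which recognises mismatches, had 819.8 and 916 in blood and 1107 and 948 in spleen. Its difference was 0.43 in mouse 1 and 0.048 in mouse 2, and 0.13 without spleen replicate 1. Polq, the polymerase of theta end joining, was dim, at 99.9 and 109.7 in blood and 95.7 and 78.9 in spleen, and lower in both spleen arrays.

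**Figure D3:**
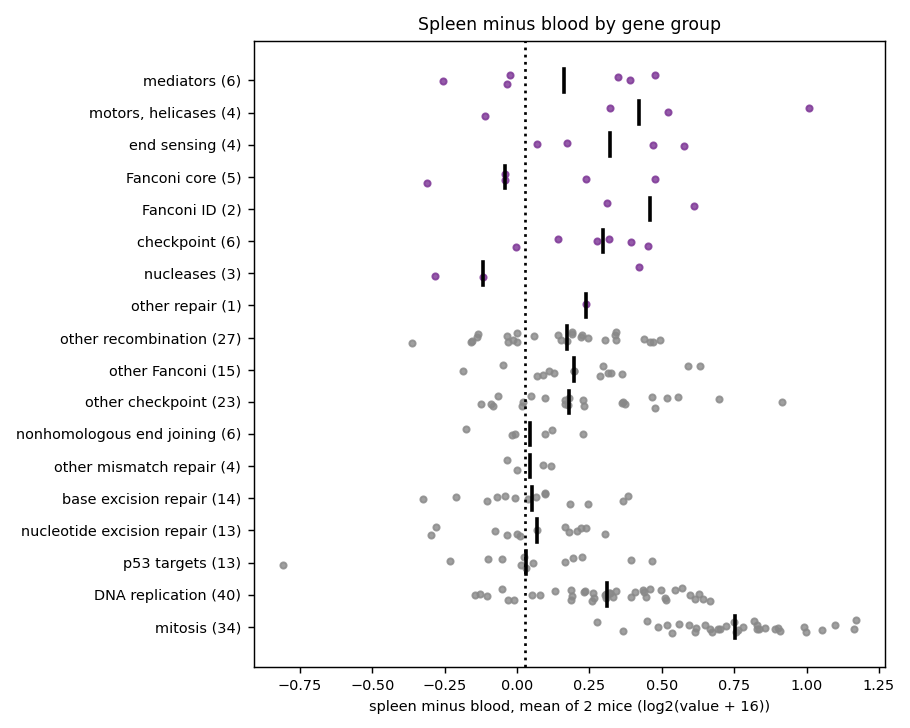
Spleen minus blood, as the mean of the 2 mice on the log2(value + 16) scale (x axis), for the tested genes of each group, with their number in parentheses; purple points are the repair genes by role, grey points genes of other lists, black bars are group medians, and the dotted line is the median of all 11614 tested genes, 0.03. The bars of the Fanconi ID pair (0.46), motors and helicases (0.42, Parpbp included) and end sensing (0.32) lie right of that of DNA replication (0.31). They lie left of that of mitosis (0.75). Bars of checkpoint genes (0.30), other repair (0.24, 1 gene), mediators (0.16), the Fanconi core (-0.04) and nucleases (-0.12) lie left of that of replication.

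Other genes of the same pathways were higher in spleen more often than lower. Of 65 tested genes of recombination, the Fanconi pathway and checkpoint signalling outside the members, 0 passed over all genes; in both mice 43 were higher in spleen and 7 lower, and the median difference was 0.19. Over all tested genes 38.5% were higher in both mice and 25.1% lower, and the median was 0.03. Ube2t, the conjugating enzyme that works with Fancl, differed by 0.63 ± 0.12 (adjusted p = 0.168), and Usp1, which removes the ubiquitin from FANCD2, by 0.59 ± 0.11 (adjusted p = 0.180). Cdc25b, the phosphatase that drives entry into mitosis and is a target of the checkpoint, differed by 0.91 ± 0.12 (adjusted p = 0.140), and Etaa1, a second activator of ATR, by 0.70 ± 0.14 (adjusted p = 0.197). Among further recombination genes, Hells, a chromatin remodeller, differed by 0.49 ± 0.11 (adjusted p = 0.222) and Fignl1, an ATPase of recombination, by 0.47 ± 0.14 (adjusted p = 0.317).

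Repair pathways that do not depend on a sister chromatid stood near the median of all genes. Nonhomologous end joining, which rejoins breaks without a template, had a median difference of 0.05 over 6 tested genes, of which 3 were higher and 1 lower in both mice. Prkdc, its kinase, differed by 0.23 ± 0.12 and Xrcc4, a ligation factor, by -0.18 ± 0.12. Base excision repair had a median of 0.05 over 14 genes, with 5 higher and 2 lower in both mice. Nucleotide excision repair had 0.07 over 13 genes, with 5 higher and 4 lower. Of all tested genes 38.5% were higher and 25.1% lower in both mice. Parp1, the sensor of single-strand breaks, differed by 0.38 ± 0.17 and Ung, which removes uracil from DNA, by 0.37 ± 0.11. Ddb1, an adaptor of damage recognition, differed by 0.30 ± 0.11 and Xpc, the damage sensor, by -0.30 ± 0.13. The 4 tested mismatch repair genes other than Msh6 had a median of 0.04, with Pms2 and Mlh3, both MutL homologs, at 0.12 ± 0.14 and 0.09 ± 0.12. None of the genes on these lists passed over all genes, where limma called 0. Unadjusted p was under 0.05 for 1 gene each of base and nucleotide excision repair. It was so for 0 genes on the end joining and mismatch repair lists, and for 12.4% of all tested genes.

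Targets of p53, the transcription factor that ATM and CHEK2 stabilise after damage, had a median difference of 0.03, that of all tested genes. Of 13 tested targets 7 were higher and 3 lower in both mice, against 38.5% and 25.1% of all tested genes. Pmaip1, which promotes cell death, was lower in spleen, with a difference of -0.81 ± 0.18 (adjusted p = 0.210), and Perp, a membrane protein, was higher by 0.47 ± 0.12 (adjusted p = 0.277). Mdm2, which degrades p53, differed by 0.026.

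Genes of DNA replication and mitosis were higher in spleen too. The 40 tested replication genes had a median difference of 0.31, and 34 of them were higher in both mice. The 34 mitosis genes had a median of 0.75, and all 34 were higher in both, against 38.5% of all tested genes. Dtl, a replication licensing regulator, differed by 0.67 ± 0.12 and Ccne2, which drives cells into S phase, by 0.64 ± 0.12. Bub1, a spindle checkpoint kinase, differed by 1.05 ± 0.14 and Nusap1, a spindle protein, by 1.17 ± 0.13. The part of cell division genes in the differences of the repair genes was not tested. The median over the 31 tested repair genes was 0.26 in mouse 1 and 0.30 in mouse 2.

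**Figure D4:**
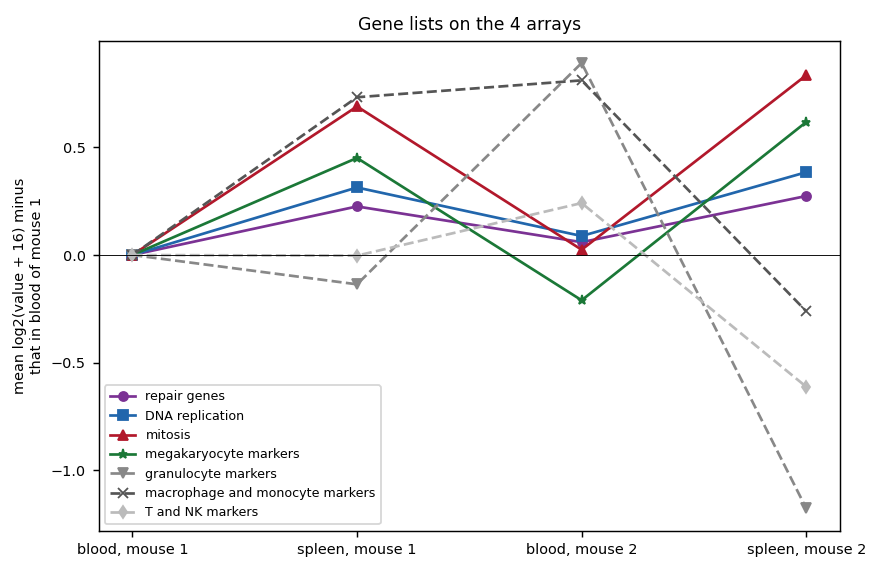
Mean log2(value + 16) of each gene list on the 4 arrays (x axis) minus its mean in blood of mouse 1 (y axis), with lines that only join the points of a list. Repair genes stood at 0.23 (mouse 1) and 0.27 (mouse 2) in spleen, and at 0.060 in blood of mouse 2, granulocyte markers at -0.14 in spleen of mouse 1 and at 0.89 (blood) and -1.18 (spleen) in mouse 2, and macrophage markers at 0.73, 0.81 and -0.26 on the same arrays.

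Promoter windows show what letters the genes share around their start sites. RefSeq promoter sequence (mouse build GRCm38.p6, from 250 bases before to 50 after a start site) was matched for 31 of the 36 members, by symbol. The first listed start of each gene was used, which need not be the one these cells use. Windows were searched on both strands for 4 E2F motifs (TTTGGCGC, TTTCCCGC, TTTCGCGC and TTTGCCGC), for the CHR element of genes expressed in G2 and mitosis (TTTGAA or TTTAAA), for CCAAT, for an ETS motif (CCGGAAGT) and for the NRF1 motif. TTTAAA and the NRF1 motif read the same on both strands, and none of the motifs holds another.

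An E2F motif was found in 7 of the 31 member promoters, 22.6%, against 4.15% of the promoters of tested genes, 2.26% of the 32851 promoters in the table and 40.6% of those of the replication genes. The 7 are shown because E2F factors are known regulators of genes of this pathway. Each line gives 30 bases, with the motif, or its reverse complement, in capitals, read 5′ to 3′ on the strand of the gene.
Brca2, chr5:150522442-150522471, plus strand: tttaggccacaGCGGGAAAcagacacacac
Rad51c, chr11:87404477-87404506, minus strand: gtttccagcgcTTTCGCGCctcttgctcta
Topbp1, chr9:103305187-103305216, plus strand: ccgctcggttgGCGCGAAAgtcggttcccg
Chek2, chr5:110839820-110839849, plus strand: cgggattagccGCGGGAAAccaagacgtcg
Fancg, chr4:43010335-43010364, minus strand: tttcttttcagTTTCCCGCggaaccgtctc
Msh6, chr17:87975054-87975083, plus strand: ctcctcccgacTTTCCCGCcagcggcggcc
Bard1, chr1:71103163-71103192, minus strand: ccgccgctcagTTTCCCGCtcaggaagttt

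Members with and without the motif had similar median differences between the tissues. The median difference was 0.24 for the 7 with a motif, from -0.25 for Rad51c to 0.45 for Topbp1, and 0.25 for the 24 without. Of the 11 members with a promoter that were at least 0.25 higher in spleen in both mice, 2 held an E2F motif, and of the other 20 members 5 did. CCAAT stood in 61.3% of member promoters and 38.1% of those of tested genes, and in 73.3% of those of the mitosis genes. CHR elements were found in 12.9% of member promoters, 19.3% of those of tested genes and 80% of those of the mitosis genes. The ETS motif was found in 2 member promoters, 6.45%, against 8.07% for tested genes, and the NRF1 motif in 0, against 1.96%. In 6 members (Brca2, Rad51c, Fancg, Fancm, Fancc and Slx4) the window lay wholly inside the annotated gene, as it did in 1844 of the 9406 tested genes with a window. Without such windows, a choice made after seeing the data, an E2F motif was found in 4 of 25 members, 16%, against 4.26% of tested genes, CCAAT in 64% against 39.2%, and CHR elements in 16% against 19.5%. A match only describes the letters of the window.

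The members with the largest differences among those with a window are shown whole, 300 bases each, with all motif matches in capitals. Parpbp held the CHR element on both strands and a CCAAT, and is the only one of the 4 with a CHR element. Rad54l and Brca1 held a CCAAT each, and Fancl none of the motifs.
Parpbp, chr10:88146892-88147191, minus strand: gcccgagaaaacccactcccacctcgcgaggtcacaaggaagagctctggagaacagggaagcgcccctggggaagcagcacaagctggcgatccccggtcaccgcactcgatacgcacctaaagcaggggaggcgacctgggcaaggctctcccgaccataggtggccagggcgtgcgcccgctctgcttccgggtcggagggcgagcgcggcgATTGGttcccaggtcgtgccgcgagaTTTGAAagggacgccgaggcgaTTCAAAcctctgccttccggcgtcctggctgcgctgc
Rad54l, chr4:116123641-116123940, minus strand: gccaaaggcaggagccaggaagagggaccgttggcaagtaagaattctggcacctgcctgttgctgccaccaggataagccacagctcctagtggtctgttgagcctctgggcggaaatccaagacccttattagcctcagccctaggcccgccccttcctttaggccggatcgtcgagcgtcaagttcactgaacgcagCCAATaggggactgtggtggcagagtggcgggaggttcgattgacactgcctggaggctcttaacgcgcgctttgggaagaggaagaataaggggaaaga
Brca1, chr11:101551906-101552205, minus strand: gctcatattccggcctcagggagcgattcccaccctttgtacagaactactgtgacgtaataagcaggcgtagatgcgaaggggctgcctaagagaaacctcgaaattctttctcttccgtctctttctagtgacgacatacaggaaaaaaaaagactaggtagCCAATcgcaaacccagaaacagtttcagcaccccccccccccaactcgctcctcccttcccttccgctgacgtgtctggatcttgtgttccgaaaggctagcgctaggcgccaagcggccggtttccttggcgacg
Fancl, chr11:26386834-26387133, plus strand: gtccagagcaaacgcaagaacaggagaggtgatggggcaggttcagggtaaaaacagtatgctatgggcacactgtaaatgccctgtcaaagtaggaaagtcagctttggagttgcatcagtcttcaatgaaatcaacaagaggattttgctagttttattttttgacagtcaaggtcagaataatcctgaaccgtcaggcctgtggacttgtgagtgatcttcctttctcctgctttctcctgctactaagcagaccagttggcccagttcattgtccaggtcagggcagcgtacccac
The windows of Fancc and Slx4, the 2 members at the other end, lay 65547 and 2151 bases inside the 5′ end of the annotated gene, and are not shown.

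Several genes had more than 1 probe set, which allows the direction to be read again on other probes of the same RNA. Of the 74 member probe sets 44 reached the median, and 28 of these were higher in spleen in both mice and 7 lower, where 39.9% of such probe sets over all genes were higher. Of 23 members with several probe sets, 10 had all of them in the direction of the one used, by the mean of the 2 mice. Among the 10 members with several that reached the median, 7 had all of those in one direction by this mean. These were Brca1, Rad51ap1, Mre11a, Exo1, Fanca, Fancg and Chek1, while Fancc, Atm and Atr did not have this. The mice went opposite ways in the second bright probe set of Fancg, at -0.14 in mouse 1 and 0.53 in mouse 2. That of Mre11a likewise gave -0.015 and 0.039. For Chek1 the second bright probe set had intensities of 211 and 258 in blood of mouse 1 and 2 and 314 and 323 in spleen. How often the probe sets of a gene share a direction over all genes was not worked out. Nor was the share of bright probe sets lower in both mice.

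**Figure D5:**
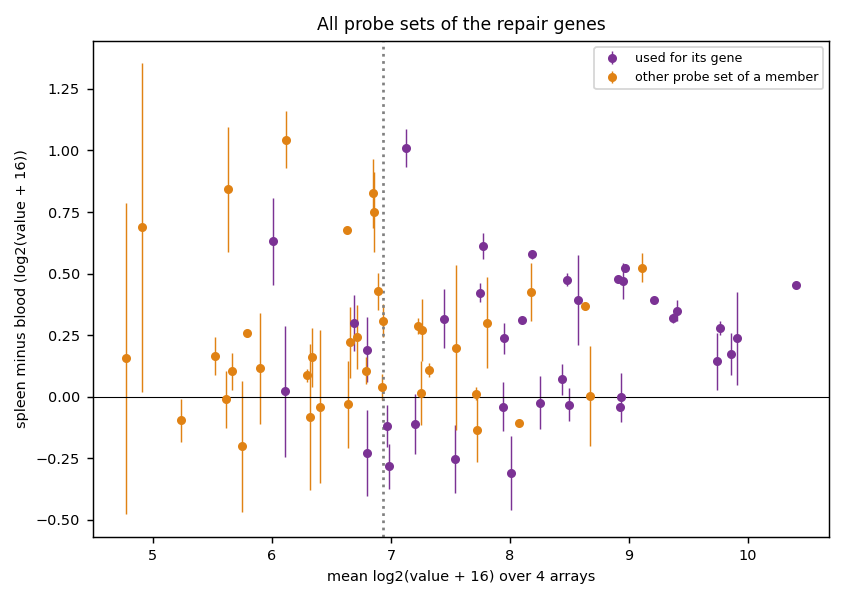
Spleen minus blood (y axis, log2(value + 16), mean of the 2 mice, with bars reaching to the value of each mouse) against the mean log2(value + 16) over the 4 arrays (x axis) for all 74 probe sets of the repair genes; purple points are the probe sets used for each gene, orange points the others, and the dotted line is the median of all probe sets. To the right of the line 28 of 44 probe sets are higher in spleen in both mice.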

How the data were processed

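Gene expression in sorted leukemic blasts of 2 mice was measured on 4 Affymetrix arrays, from Trizol-extracted total RNA made into biotinylated cRNA, per the labels' protocols. The authors deposited a linear intensity for each probe set. Their probe summary, background correction and scaling are not given in the sources used. Precision is limited by having only 4 arrays.

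Values below 0 (1.60% to 2.17% per array) were set to 0, because a log needs values above it, 16 was added and the log2 was taken, so a fold change of a dim gene is understated. Of 45101 probe sets, 34945 were paired with 1 gene, 932 with several and 9160 with none, besides 64 controls. A RefSeq gene table (GRCm38.p6) gave current symbols by Entrez identifier for 34741 of those with 1 gene. Tissues were compared by limma 3.58.1 in R 4.3.3 (lmFit then eBayes, a two-sided test, tissue the only term), and p-values were adjusted over the 11614 tested genes by the Benjamini-Hochberg method; errors of differences are standard errors of this fit. Limma was tested on simulated data for this comparison, using 11614 genes, 200 of them altered, over 10 runs: it recovered 76.9% of 2-fold and 98.8% of 4-fold alterations, and 4.72% of its calls were wrong. On the arrays themselves limma called 0 genes, and the smallest adjusted p was 0.140. Treml1, Nusap1 and Parpbp, with differences of 1.61, 1.17 and 1.01 on the log2 scale, were among the genes not called. Whether the recovery seen in the simulation holds for these arrays was not tested.

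Arrays are paired by mouse number, which per the labels marks one animal sampled in both tissues. Over tested genes, mouse 2 minus mouse 1 had r = 0.10 between blood and spleen (genes are not independent replicates). Adding mouse as a block was one alternative, beside other offsets, filters, scalings, probe set rules and priors, and leaving out each array. Members, lists and roles were chosen with earlier results of these data known. Described in full were, in each role, up to 3 tested members by the smaller of their within-mouse differences where both had one sign. All other members are given by their values, since each is accounted for. Of each other list, the 2 leading genes by the same measure are named, or 1 where only 1 had both differences of one sign. Mdm2, the second probe sets, the markers under the median and the further markers named beside the leading ones were named after their values were seen. Promoters were to be shown for the 4 highest and 2 lowest members; Exo1 and Fancd2, without a sequence, gave way to the next members.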

Additional observations from a re-analysis of the deposited data

How the results depend on the processing

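Under all 13 alternatives 0 members passed over all genes, with a smallest adjusted p among them between 0.102 and 0.693. With mouse as a block, which uses the pairing of the arrays, limma called 0 genes and 0 members, and no call changed. The median member difference was 0.28, and 21 tested members were higher in both mice. Of the members 16 then had an unadjusted p under 0.05, as had 1812 of the 11614 tested genes. Without the block these counts were 15 and 1443. A prior with an intensity trend called 45 genes of all tested, and leaving out 1 array called between 0 and 20, the 20 without spleen replicate 1. The median difference over the tested members was 0.28; it was 0.24 with quantile normalization, 0.32 with centred arrays, 0.22 with probe sets averaged per gene and between 0.22 and 0.33 with 1 array left out. With probe sets averaged per gene, 10 of 23 tested members had an unadjusted p under 0.05, as had 1320 of the genes tested under that rule. The share of all genes was not worked out for this rule, so these 2 counts cannot be compared. Among all genes with p under 0.05, 943 were higher in spleen and 500 lower; quantile normalization gave 765 and 602 and centred arrays 1310 and 354, while the members gave 15 and 1 and 16 and 0. Of the 21 members described in full, Fancc turned to 0.087 when its probe sets were averaged, and Mus81 turned to 0.12 without blood replicate 1 and to 0.040 without spleen replicate 2, within a range from -0.36 to 0.12; the cause was not tested. The other 19 kept their direction under every alternative that tested them. Chek1, Exo1, Fancd2, Fanci and Rad54l were not tested with probe sets averaged per gene. Parpbp, Fancd2, Eme1 and Slx4 were not tested with a filter at 2 times the median intensity. The count of members higher in both mice has no value when an array is left out. Dim probe sets limit what can be said of Bard1, Rad54b, Brip1, Fancb, Polq, Mus81 and Slx4, and of the level of Parpbp in blood.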

Other observations

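The repair genes differed between the mice in both directions. In blood 8 of the 36 measured members differed by at least 0.25, 5 higher and 3 lower in mouse 2, and in spleen 6, of which 5 were higher; over all genes the shares were 32.4% and 37.4%. In blood these went from -0.49 for Mus81 to 0.56 for Bard1. The median of mouse 2 minus mouse 1 over the 36 measured members was 0.09 in blood and 0.05 in spleen. Mus81 alone was at least 0.25 lower in mouse 2 in both tissues, with differences of -0.49 in blood and -0.32 in spleen, and 0 members were at least 0.25 higher in both. Over all 18193 genes 1089 were lower and 664 higher by that measure.

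Probe sets paired with a member and a second gene were left out of every comparison. The one paired with Atrip and Trex1, an exonuclease that degrades cytosolic DNA, had intensities of 1023 and 1176 in blood of mouse 1 and 2 and 851 and 664 in spleen, so it was lower in spleen in both mice, with differences of -0.26 and -0.81. The probe set of Atrip alone had the opposite direction, with differences of 0.20 and 0.44. Of the 2 paired with Fsbp and Rad54b, the brighter had 245 and 318 in blood and 239 and 251 in spleen.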
